A study of Mus musculus with 20 samples.

Results

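The comparison described here sets APG-157 + anti-CTLA-4 against anti-CTLA-4 alone in SCCVII tumors, and so asks what the tumor RNA looked like when APG-157 was added to a CTLA-4 antibody. It rests on 4 of the 20 RNA sequencing libraries of the study, chosen by their treatment labels: libraries A and B of APG-157 + anti-CTLA-4, called the combination below, and libraries A and B of anti-CTLA-4. SCCVII is a squamous cell carcinoma line of the mouse, here grown under the skin of immunocompetent C3H/HeOuJ mice. In the combination group the mice ate chow that held APG-157, a botanical drug made from the turmeric plant Curcuma longa with curcumin among its constituents, and received an antibody to CTLA-4 by intraperitoneal injection. The anti-CTLA-4 group received the antibody without APG-157. Neither group received anti-PD-1 or an antibody that depletes CD8 T cells. The mouse age is not given in the sources used here. Whether the libraries A and B of a treatment are separate tumors is not stated in the sources, and the p-values therefore measure a spread between libraries that may be technical. For the combination, the study's text describes a lone small tumor as what remained for tissue assays, and both combination libraries may come from it. A fit that sums them as 1 sample called the same number of genes, 1, in the comparison and 0 in the interaction with APG-157 described last. The sources used here also do not say from which of the mouse experiments of the study the combination libraries were taken, and any difference between experiments cannot be told apart from the treatment.

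CTLA-4 is a receptor on activated and regulatory T cells that competes with CD28 for the ligands CD80 and CD86 on antigen-presenting cells, and an antibody that blocks it lets CD28 signal to the T cell. A tumor that T cells enter usually shows RNA for the T cell receptor, for granzymes and perforin with which killer cells lyse their targets, and for genes that interferon gamma induces in tumor cells and macrophages. Around the tumor cells lie fibroblasts, vessels and an extracellular matrix of collagens, elastic fibers and small proteoglycans. Bulk tumor RNA was sequenced, so fewer cells of a type and less RNA per cell of that type cannot be told apart in any value given below.

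Values are given as CPM, the reads of a gene per 1e6 reads assigned to genes, scaled for library composition. The combination libraries held 70.1 and 56.0 assigned reads in units of 1e6, against 49.7 and 58.4 in the anti-CTLA-4 libraries, within the range of 43.9 to 72.1 over all 20. Both combination libraries were very alike. Their biological coefficient of variation, the spread beyond counting noise, was 4.25%, against 47% between the anti-CTLA-4 libraries and 20.8 to 68.2% in the other groups. The combination libraries still differed by more than counting noise (median chi-square per gene 1.57, where counting noise alone gives 0.455) and were counted as 2 libraries. The anti-CTLA-4 libraries stood apart from each other. Library A was high in T cell RNA and low in skeletal muscle RNA, whereas library B was the reverse. The summed level of 40 skeletal muscle genes was 172 and 167 CPM in the combination libraries, against 148 and 3320 CPM in the anti-CTLA-4 libraries. Keratins 8 and 18, made by simple epithelia and by many carcinomas, marked all 4 libraries. Krt8 stood at 981 and 942 CPM in the combination libraries, against 700 and 887 CPM in the anti-CTLA-4 libraries. Keratins 5 and 14, which define basal squamous cells, were at 0 to 0.0294 CPM in these 4 libraries, so the basal squamous markers were absent or nearly absent from the 4 libraries.

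Very few genes passed the test. At looser limits on p alone, genes were split almost evenly between higher and lower, while more were lower where a minimum difference was set. Of 19567 genes tested, edgeR's quasi-likelihood test called 1 higher in the combination (0.00511%) and 0 lower (0%) at an adjusted p under 0.05 and a log2 difference over 2 in size. At an unadjusted p under 0.05 the counts were 2222 higher (11.4%) and 2395 lower (12.2%). At an adjusted p under 0.10 they were 959 higher (4.90%) and 1007 lower (5.15%), of which 34 (0.174%) and 105 (0.537%) also had a log2 difference over 2 in size. The count of calls depended on the fit: DESeq2 called 277 genes on all 20 libraries and 339 on the 4 compared libraries, and edgeR called 122 on these 4. Since the combination libraries were so alike, separation was also counted. A gene is called apart below when both combination libraries lay at least 2-fold above, or below, both anti-CTLA-4 libraries, and 212 genes were apart and higher (1.08%) while 363 were apart and lower (1.86%). With the exception of the pseudogene Gm43802, no gene named below passed the main test, and the words higher and lower describe the values of the 4 libraries.

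The called gene was Gm43802 (ENSMUSG00000105338.2), a processed pseudogene, meaning a gene copy made from a messenger RNA. It had 13.6 and 12.8 CPM in the combination libraries, against 0 and 0 CPM in the anti-CTLA-4 libraries. The combination was at least 464-fold higher, counted against a floor of 3 reads over the anti-CTLA-4 group, with an edgeR adjusted p of 0.013. The gene was also at 0 in both libraries of the group that received anti-CD8 with the combination and was present in the other 7 groups at 2.04 to 12.7 CPM, so that 1 of the groups without it had also received APG-157. Its call was lost when combination library A (edgeR adjusted p = 0.0511), anti-CTLA-4 library A (adjusted p = 0.0741) or anti-CTLA-4 library B (adjusted p = 0.172) was left out. Reads of a processed pseudogene can be shared with near-identical copies, so its level is uncertain.

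The next lowest adjusted p was 0.0645, a value shared by 242 genes, among which the next named ones had the lowest unadjusted p in each direction among genes that were apart. Their separation is thus part of how they were picked and is given as a description. On the higher side stood Herc3, a ubiquitin ligase of the HECT family, with 16.1 and 16 CPM in the combination libraries, against 5.97 and 4.74 CPM in the anti-CTLA-4 libraries. Hivep1, a zinc finger protein that binds enhancer sequences of the NF-kB type, had 64.9 and 62.6 CPM in the combination libraries, against 28.1 and 28.6 CPM in the anti-CTLA-4 libraries. Kcna3, the voltage-gated potassium channel Kv1.3 that sets the membrane potential of T cells, was low everywhere, with 2.5 and 1.64 CPM in the combination libraries, against 0.164 and 0.32 CPM in the anti-CTLA-4 libraries. Gpr149, an orphan G protein-coupled receptor, had 91.1 and 91.2 CPM in the combination libraries, against 32.4 and 38.3 CPM in the anti-CTLA-4 libraries, and its log2 difference was 1.36 ± 0.26 (SE). Tmem200a, which codes for a transmembrane protein, had 48.8 and 50.7 CPM in the combination libraries, against 13.6 and 20.4 CPM in the anti-CTLA-4 libraries. The ring finger protein Rnf24 had 41.8 and 43.5 CPM in the combination libraries, against 20.1 and 19.9 CPM in the anti-CTLA-4 libraries. The pseudogenes Gm15931 and Gm8995, whose reads may be shared with similar copies, were also higher, with log2 differences of 2.05 and 1.56, as was the protein-coding gene Gm14548 at 2.02. On the lower side, 5 of the 10 picked genes were matrix, vessel or protease genes and are described next. The others were Ccn1, a secreted matricellular protein that cells release on stretch, and Ntng1, Rpp25l, BC051077 and Gm5575. Ccn1 had 27 and 26.4 CPM in the combination libraries, against 84.8 and 109 CPM in the anti-CTLA-4 libraries. Netrin G1, coded by Ntng1, is a membrane-tethered relative of the axon guidance netrins, and was at 0.545 and 0.475 CPM in the combination libraries, against 2.03 and 2.1 CPM in the anti-CTLA-4 libraries.

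**Figure D1:**
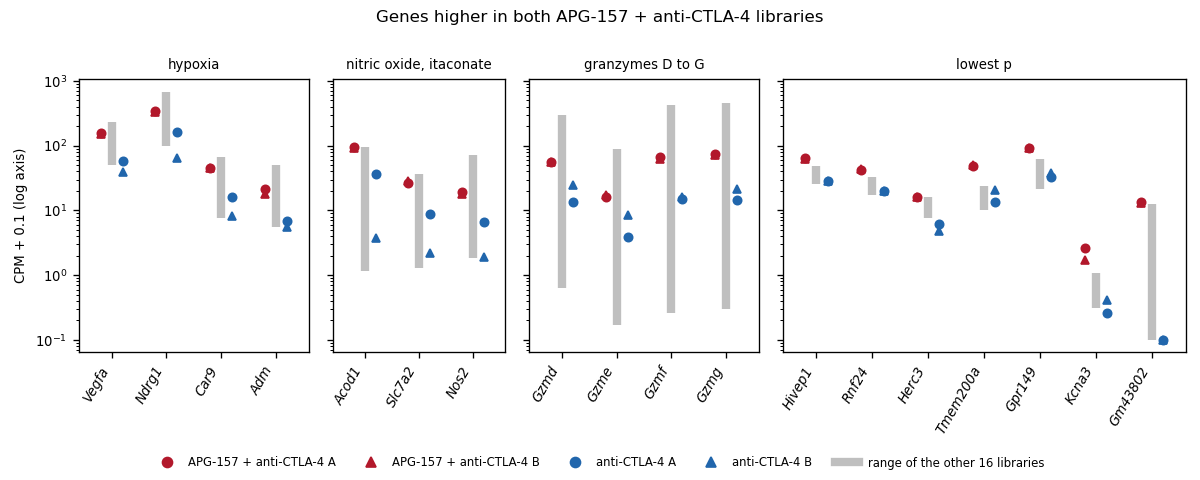
Levels of genes that were higher in both combination libraries, as CPM plus 0.1 on a log axis, with 1 point per library (circle A, triangle B), the combination in red on the left, the range of the other 16 libraries as a gray bar and anti-CTLA-4 in blue on the right. The red points almost coincide and lie above both blue points, as for Vegfa at 158 and 149.9 CPM in the combination, against 58.4 and 39.4 CPM in anti-CTLA-4.

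Many genes of the extracellular matrix lay lower in the combination. Of 35 tested collagen and matrix genes, 12 were apart and lower and 0 apart and higher, against 1.86% and 1.08% of all genes tested. At an unadjusted p under 0.05, 18 were lower and 0 higher, against 12.2% and 11.4% of all genes. The median log2 difference was −0.94, against −0.085 over all genes tested. The median stood at −0.61 against library A of anti-CTLA-4 and at −0.96 against library B, so that it was negative against either. In all 12 genes that were apart, both combination libraries also lay under the 16 libraries of the other groups, as they did in 185 of the 363 genes that were apart and lower (0.945% of all genes tested).

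Among elastic fiber genes the gaps were wide. Elastin, the protein Eln codes for, had 3.43 and 3.23 CPM in the combination libraries, against 47.8 and 43.8 CPM in the anti-CTLA-4 libraries. Its log2 difference was −3.78 ± 0.92 (SE, edgeR adjusted p = 0.066), and the other 16 libraries held 36 to 444 CPM. Mfap4 and Mfap5, which code for microfibril proteins that surround elastin, went the same way. Mfap4 had 0.162 and 0.0914 CPM in the combination libraries, against 2.91 and 6.13 CPM in the anti-CTLA-4 libraries. Mfap5 had 0.971 and 0.822 CPM in the combination libraries, against 4.88 and 17.4 CPM in the anti-CTLA-4 libraries. Both genes were among the members that were apart. Further members that were apart and lower were the elastic fiber genes Fbln1, Fbln2 and Efemp1 and the cross-linking enzymes Lox and Loxl1, with Postn, which codes for periostin.

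Mgp, matrix Gla protein, which keeps calcium salts from forming in soft tissue, had 6.5 and 7.05 CPM in the combination libraries, against 55.6 and 52.6 CPM in the anti-CTLA-4 libraries. That is a log2 difference of −3.0 ± 0.53 (SE, edgeR adjusted p = 0.0645), in a gene picked from those that were apart. Col6a2 codes for a chain of collagen VI, which forms beaded filaments around cells. It had 74.4 and 67.8 CPM in the combination libraries, against 212 and 366 CPM in the anti-CTLA-4 libraries, a log2 difference of −2.02 ± 0.31 (SE, edgeR adjusted p = 0.0645). The other 16 libraries held 207 to 484 CPM of Col6a2 and 34.9 to 151 CPM of Mgp, all above both combination libraries. The summed level of the list, which its most abundant members set, overlapped, at 12000 and 11600 CPM in the combination libraries, against 11200 and 14300 CPM in the anti-CTLA-4 libraries. The mean log2 level, in which each gene counts alike, did not overlap, at 5.17 and 5.12 in the combination libraries, against 6.01 and 6.51 in the anti-CTLA-4 libraries and 6.30 to 7.56 in the other 16.

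**Figure D2:**
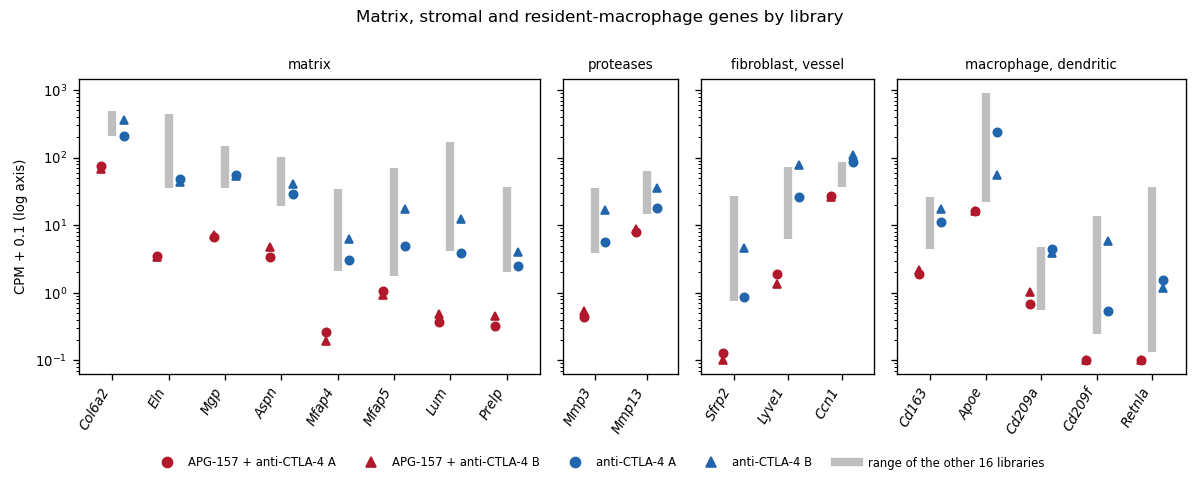
Levels of matrix, protease, fibroblast, vessel, macrophage and dendritic cell genes that were lower in both combination libraries, as CPM plus 0.1 on a log axis, with the combination (red), the range of the other 16 libraries (gray bar) and anti-CTLA-4 (blue) from left to right and library A as a circle, B as a triangle. For Aspn, the combination points at 3.28 and 4.71 CPM lie below the anti-CTLA-4 points at 29.2 and 40.9 CPM.

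The small leucine-rich proteoglycans coat collagen fibrils and set their spacing. Of 11 tested, 4 were apart and lower and 0 apart and higher, against 1.86% and 1.08% of all genes tested. The log2 difference was negative in 10 of 11, with a median of −1.63, or −0.93 when genes at 0 in a group were held at their bounds. Asporin, from Aspn, binds collagen and the growth factor TGF-beta. It had 3.28 and 4.71 CPM in the combination libraries, against 29.2 and 40.9 CPM in the anti-CTLA-4 libraries, with a log2 difference of −3.13 ± 0.47 (SE, edgeR adjusted p = 0.0645). Lumican, from Lum, had 0.265 and 0.384 CPM in the combination libraries, against 3.77 and 12.2 CPM in the anti-CTLA-4 libraries. Prelp had 0.221 and 0.347 CPM in the combination libraries, against 2.4 and 3.86 CPM in the anti-CTLA-4 libraries. Aspn, Lum and Prelp were among the 4 members that were apart, and Dcn, which codes for decorin, was the other.

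Matrix proteases did not share a direction. Of 13 tested metalloproteinases and inhibitors, 2 were apart and higher and 2 apart and lower, against 1.08% and 1.86% of all genes tested. The median log2 difference was 0.15. Stromelysin, from Mmp3, which fibroblasts release to cut proteoglycans and other proteases, had 0.338 and 0.439 CPM in the combination libraries, against 5.46 and 16.7 CPM in the anti-CTLA-4 libraries. Mmp13, an interstitial collagenase, had 7.76 and 8.59 CPM in the combination libraries, against 18 and 35.1 CPM in the anti-CTLA-4 libraries. By contrast Mmp12, the elastase of macrophages, was higher at 21.1 and 22.9 CPM in the combination libraries, against 7.55 and 5.85 CPM in the anti-CTLA-4 libraries. The log2 differences were −4.83 for Mmp3, −1.7 for Mmp13 and 1.72 for Mmp12.

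Fibroblast and vessel markers lay lower more often than higher. Of 20 fibroblast genes, 3 were apart and lower (Sfrp1, Sfrp2 and Sfrp4, which code for secreted antagonists of Wnt signaling) and 0 were apart and higher, against 1.86% and 1.08% of all genes tested. Sfrp2 had 0.0294 and 0 CPM in the combination libraries, against 0.759 and 4.44 CPM in the anti-CTLA-4 libraries, so the combination libraries held almost no read of it. The median log2 difference of the list was −0.82. At an unadjusted p under 0.05, 3 of the 20 were lower, a share near the 12.2% of all genes, and 0 were higher, against 11.4%. Among 19 endothelial genes, 7 were lower at an unadjusted p under 0.05 and 0 higher, against 12.2% and 11.4% of all genes, with a median of −0.70, and Lyve1 was the single member apart at 2-fold. Lyve1 is the hyaluronan receptor of lymphatic vessels and of some tissue macrophages, and had 1.77 and 1.26 CPM in the combination libraries, against 25.9 and 78.6 CPM in the anti-CTLA-4 libraries. Its log2 difference was −5.1 ± 0.96 (SE, edgeR adjusted p = 0.0645), and the other 16 libraries held 6.24 to 72.5 CPM.

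Macrophage genes did not share a direction. The list had a median log2 difference of 0.15, with 15 of 23 genes positive. Of the 23, 4 were apart and lower and 1 apart and higher, against 1.86% and 1.08% of all genes tested. The members that were apart and lower were Cd163, Cd209f, Retnla and Apoe, of which the first 3 are known from resident or alternatively activated macrophages. Arg1, the arginase that interleukin 4 also induces in macrophages, was the 1 member apart and higher, at 182 and 184 CPM in the combination libraries, against 64.3 and 26.3 CPM in the anti-CTLA-4 libraries, and is named here because of these values. Cd163, the scavenger receptor for hemoglobin bound to haptoglobin, had 1.78 and 2.1 CPM in the combination libraries, against 11.2 and 17.5 CPM in the anti-CTLA-4 libraries. Cd209f, a lectin receptor of the DC-SIGN family, had 0 and 0 CPM in the combination libraries, against 0.431 and 5.65 CPM in the anti-CTLA-4 libraries. The combination was at least 132-fold lower for this gene, counted against 3 reads over the group, but 318 of the 339 anti-CTLA-4 reads were in library B, and against library A alone the bound was 17.6-fold. Retnla, a secreted protein that interleukin 4 induces in macrophages, was at 0 and 0 CPM in the combination libraries, against 1.46 and 1.07 CPM in the anti-CTLA-4 libraries, at least 51-fold lower. Since these genes were named as apart, their groups do not overlap by definition. Apoe carries lipids and is abundant in macrophages. It had 16.4 and 16 CPM in the combination libraries, against 241 and 55.3 CPM in the anti-CTLA-4 libraries, and the anti-CTLA-4 libraries differed from each other by more than 4-fold. Of 16 dendritic cell genes, 1 was apart in each direction, against 1.08% higher and 1.86% lower of all genes tested. Cd209a, found on monocyte-derived dendritic cells, was lower at 0.589 and 0.932 CPM in the combination libraries, against 4.29 and 3.75 CPM in the anti-CTLA-4 libraries. Xcr1, the chemokine receptor of cross-presenting dendritic cells, was higher at 8.01 and 8.04 CPM in the combination libraries, against 2.93 and 1.94 CPM in the anti-CTLA-4 libraries, and Clec9a, which marks the same cells, leaned the same way at 2.78 and 3.36 CPM in the combination libraries, against 1.5 and 0.728 CPM in the anti-CTLA-4 libraries.

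Genes of the hypoxia response lay higher in the combination. HIF-1, the transcription factor that low oxygen stabilizes, binds short sequences around the letters ACGTG or GCGTG and induces genes for glycolysis, pH control and vessel growth. Of 23 tested genes of this list, 23 had a positive log2 difference, 11 were higher at an unadjusted p under 0.05 and 4 were apart and higher, against 11.4% and 1.08% of all genes tested. The median log2 difference was 0.66, and it was 0.46 against anti-CTLA-4 library A and 1.00 against library B. In 22 of 23 genes both combination libraries lay above both anti-CTLA-4 libraries, against 28.6% of all genes tested. The mean log2 level of the list was 7.92 and 7.89 in the combination libraries, against 7.28 and 6.79 in the anti-CTLA-4 libraries. The other 16 libraries ran over 6.82 to 8.43, so the combination level itself was not outside the range of the series.

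Vegfa, the growth factor that makes vessels sprout, had 158 and 149.9 CPM in the combination libraries, against 58.4 and 39.4 CPM in the anti-CTLA-4 libraries, a log2 difference of 1.66 ± 0.55 (SE, edgeR adjusted p = 0.09997). Car9, the carbonic anhydrase that acidifies the space around hypoxic cells, had 45.1 and 44.7 CPM in the combination libraries, against 16.1 and 8.21 CPM in the anti-CTLA-4 libraries. Adm codes for the vessel-widening peptide adrenomedullin and had 21.1 and 18.1 CPM in the combination libraries, against 6.73 and 5.45 CPM in the anti-CTLA-4 libraries. The 3 genes were apart, as was Ndrg1, a stress-induced gene of hypoxic epithelia, with 341 and 335 CPM in the combination libraries, against 165 and 65.1 CPM in the anti-CTLA-4 libraries. In each of these genes, library B of anti-CTLA-4 was the lowest of the 4. In the other 16 libraries Car9 ran over 7.56 to 67 CPM and Vegfa over 49.8 to 232 CPM.

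The promoters of Car9 and Adm are shown because these genes had the largest log2 differences of the list, 1.89 and 1.68, and because both hold the core letters to which HIF-1 is known to bind. Each sequence is RefSeq on GRCm38.p6 and runs 5′ to 3′ with 250 bases before the start of transcription and 50 after it, and capitals mark ACGTG or GCGTG on either strand. Car9 lies at chr4:43506776-43507075 and Adm at chr7:110627407-110627706, both on the plus strand.
Car9: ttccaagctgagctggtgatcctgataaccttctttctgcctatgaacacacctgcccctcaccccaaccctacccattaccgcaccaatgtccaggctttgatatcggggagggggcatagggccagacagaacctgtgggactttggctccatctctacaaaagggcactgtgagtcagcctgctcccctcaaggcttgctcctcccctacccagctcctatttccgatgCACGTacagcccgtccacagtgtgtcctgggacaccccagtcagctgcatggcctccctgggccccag
Adm: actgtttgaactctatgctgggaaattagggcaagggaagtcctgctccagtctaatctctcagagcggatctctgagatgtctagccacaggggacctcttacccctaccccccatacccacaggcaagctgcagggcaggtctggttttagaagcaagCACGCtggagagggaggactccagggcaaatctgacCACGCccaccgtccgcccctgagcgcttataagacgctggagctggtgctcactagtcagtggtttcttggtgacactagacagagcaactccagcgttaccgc
Car9 held the letters at 1 place and Adm at 2. Such short motifs are common: 19.6% of 32851 promoters held ACGTG, 32.4% held GCGTG and 43.8% held either. Of the 22 listed genes with a promoter in the table, 21 held either motif in at least 1 promoter, against 46.7% of all genes. That count favors genes with several promoters. Of the 31 promoters of the list, 80.6% held either, against the 43.8% of all promoters. The list was made of known hypoxia and glycolysis genes, so these shares may follow from that choice and support no result here. A match describes the letters only and does not show that a factor bound there.

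Myeloid genes of nitric oxide, arginine and itaconate metabolism were higher. Acod1, the enzyme that makes itaconate in activated macrophages, had 94.7 and 93.4 CPM in the combination libraries, against 37.1 and 3.61 CPM in the anti-CTLA-4 libraries. Nos2, the inducible nitric oxide synthase, had 19.1 and 17.7 CPM in the combination libraries, against 6.5 and 1.78 CPM in the anti-CTLA-4 libraries. Slc7a2 codes for the arginine transporter that feeds it, and had 26.4 and 28.5 CPM in the combination libraries, against 8.59 and 2.1 CPM in the anti-CTLA-4 libraries. All 3 were apart, with log2 differences of 2.21 ± 1.06, 2.15 ± 0.78 and 2.36 ± 0.91 (SE) and edgeR adjusted p of 0.23, 0.121 and 0.146. The gaps were wider against library B of anti-CTLA-4 than against library A for each of them. They belonged to the acute-phase and myeloid list, where 6 of 16 genes were apart and higher, against 1.08% of all genes. Its 1 member apart and lower was Saa3, a serum amyloid A of inflamed tissue, at 0.397 and 0.439 CPM in the combination libraries, against 1.74 and 1.01 CPM in the anti-CTLA-4 libraries. Among 25 inflammatory cytokines and NF-kB targets, 3 were apart and higher and 1 apart and lower, against 1.08% and 1.86% of all genes. Those apart were Acod1, Nos2, Slc7a2 and Saa3 again, so both lists count the same genes. The median log2 difference of the inflammatory list was 0.36. Of 38 chemokines and receptors, 27 had a negative log2 difference. In this list 2 were apart and lower and 0 apart and higher, against 1.86% and 1.08% of all genes. At an unadjusted p under 0.05, 3 were lower and 1 higher, against 12.2% and 11.4% of all genes. The eosinophil attractant Ccl11 had 0.265 and 0.402 CPM in the combination libraries, against 2.13 and 6.77 CPM in the anti-CTLA-4 libraries, and the neutrophil chemokine receptor Cxcr2 had 2.88 and 2.5 CPM in the combination libraries, against 5.68 and 8.07 CPM in the anti-CTLA-4 libraries. Ccl8, which attracts monocytes, had 47.8 and 49.8 CPM in the combination libraries, against 328 and 30.9 CPM in the anti-CTLA-4 libraries, where the combination lay between the anti-CTLA-4 libraries.

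Among cytotoxic genes, 3 of a cluster of 4 related granzymes were apart and higher (of 20 genes in the list, against 1.08% of all genes). By contrast, 10 of the 20 lay between the anti-CTLA-4 libraries with library A the higher, against 11.6% of all genes. Granzymes are serine proteases that killer lymphocytes deliver through perforin pores. Gzmg had 75.1 and 71.3 CPM in the combination libraries, against 14.2 and 21.3 CPM in the anti-CTLA-4 libraries. Gzmf had 65.6 and 62.6 CPM in the combination libraries, against 15.1 and 16 CPM in the anti-CTLA-4 libraries. Gzmd had 55.6 and 55.6 CPM in the combination libraries, against 13.5 and 24.7 CPM in the anti-CTLA-4 libraries, and Gzme, which was not apart at 2-fold, had 16.1 and 17.2 CPM in the combination libraries, against 3.75 and 8.51 CPM in the anti-CTLA-4 libraries. In the combination libraries these genes were closely alike, and in both anti-CTLA-4 libraries each was lower. Their fitted spread over the series was wide, so the log2 differences of 2.04 ± 1.67 (Gzmg), 2.04 ± 1.62 (Gzmf), 1.54 ± 1.48 (Gzmd) and 1.44 ± 1.53 (Gzme, all SE) had edgeR adjusted p from 0.48 to 0.614. In the other 16 libraries Gzmg ran over 0.203 to 462 CPM. Granzyme B, from Gzmb, the chief death-inducing member, had 33 and 33.7 CPM in the combination libraries, against 34.7 and 6.96 CPM in the anti-CTLA-4 libraries. Perforin, from Prf1, had 32.8 and 31 CPM in the combination libraries, against 28.3 and 8.44 CPM in the anti-CTLA-4 libraries, and granzyme A, from Gzma, had 15.6 and 16.9 CPM in the combination libraries, against 12.7 and 4.78 CPM in the anti-CTLA-4 libraries. For Gzma and Prf1 both combination libraries lay above both anti-CTLA-4 libraries, by less than 2-fold over library A, while for Gzmb library A of anti-CTLA-4 was the highest of the 4.

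The genes Gzmd, Gzme, Gzmf and Gzmg lie together on chromosome 14 and are close relatives. Their transcripts shared 83.1 to 90% of bases pairwise, with stretches of 49 to 101 identical bases, against 45.4 to 46.8% with Gzmb, so reads may be split among the 4 and each level is uncertain. Their promoters are shown because the genes were higher together in these libraries and their sequences are close. Each is RefSeq on GRCm38.p6, minus strand, 5′ to 3′, at chr14:56132544-56132843 for Gzmd, chr14:56120576-56120875 for Gzme, chr14:56211358-56211657 for Gzmf and chr14:56159530-56159829 for Gzmg, and capitals mark a run of 36 bases that all 4 share.
Gzmd: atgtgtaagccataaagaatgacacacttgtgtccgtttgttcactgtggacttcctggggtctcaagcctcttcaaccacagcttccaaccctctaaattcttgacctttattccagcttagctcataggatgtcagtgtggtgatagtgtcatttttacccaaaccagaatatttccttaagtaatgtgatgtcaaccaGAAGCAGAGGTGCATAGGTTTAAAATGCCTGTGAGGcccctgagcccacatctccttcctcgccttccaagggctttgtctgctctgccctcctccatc
Gzme: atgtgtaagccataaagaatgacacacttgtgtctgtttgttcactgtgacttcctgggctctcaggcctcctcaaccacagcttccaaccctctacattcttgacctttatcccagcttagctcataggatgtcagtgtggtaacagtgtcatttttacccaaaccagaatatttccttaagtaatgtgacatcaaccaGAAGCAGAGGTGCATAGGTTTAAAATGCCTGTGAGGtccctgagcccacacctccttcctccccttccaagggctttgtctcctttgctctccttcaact
Gzmf: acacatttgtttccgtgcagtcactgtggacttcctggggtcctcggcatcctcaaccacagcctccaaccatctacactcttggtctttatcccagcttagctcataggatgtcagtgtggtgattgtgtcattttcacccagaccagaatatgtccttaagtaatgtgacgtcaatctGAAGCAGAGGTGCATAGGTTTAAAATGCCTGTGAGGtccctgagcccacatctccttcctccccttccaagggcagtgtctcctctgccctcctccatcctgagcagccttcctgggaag
Gzmg: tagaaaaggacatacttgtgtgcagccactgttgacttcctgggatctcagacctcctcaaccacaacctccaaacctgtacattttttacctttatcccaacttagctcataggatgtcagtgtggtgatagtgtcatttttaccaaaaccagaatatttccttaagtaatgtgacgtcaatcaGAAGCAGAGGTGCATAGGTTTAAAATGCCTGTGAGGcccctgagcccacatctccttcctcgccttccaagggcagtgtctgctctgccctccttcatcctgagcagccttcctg
Of 27025 genes with a promoter in the table, 4 held this run, and they were these. Between pairs, the promoters were identical at 76.3 to 93.4% of bases. The shared run is a description of the sequence and carries no test.

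**Figure D3:**
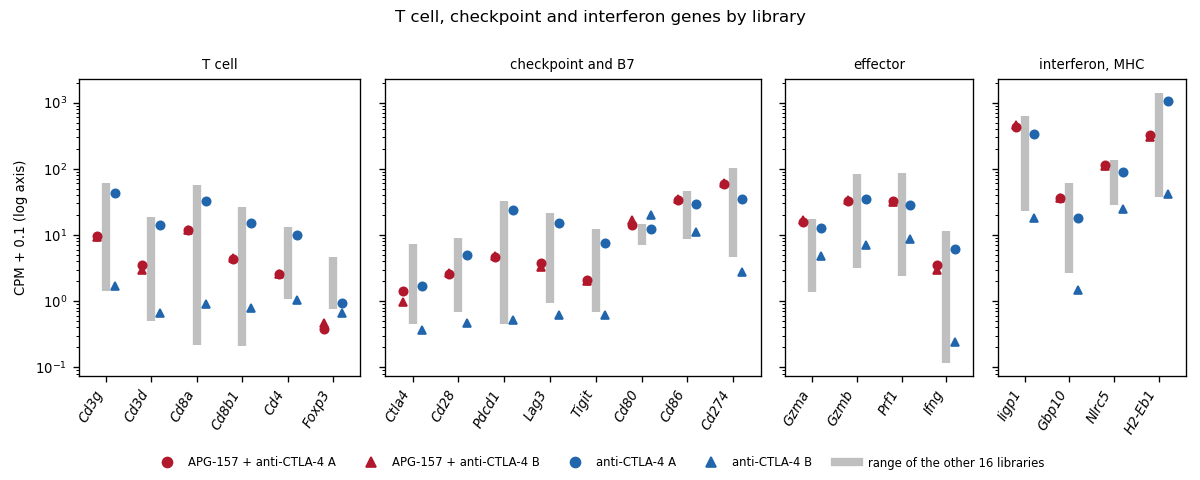
Levels of T cell, checkpoint, effector and interferon genes as CPM plus 0.1 on a log axis, with 1 point per library (circle A, triangle B), the combination in red, the range of the other 16 libraries as a gray bar and anti-CTLA-4 in blue. For most T cell genes the combination points lie between the anti-CTLA-4 points, as for Cd8a with 11.9 CPM in both combination libraries, against 32.2 and 0.8 CPM in the anti-CTLA-4 libraries.

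RNA of T cells did not separate the groups, and the combination libraries lay between the anti-CTLA-4 libraries. In 17 of 20 genes of the T cell receptor and CD3 list, and in 3 of 3 coreceptor genes, anti-CTLA-4 library A was above and library B below both combination libraries, an order that 11.6% of all genes tested had. Cd3g, a chain of the signaling complex of the T cell receptor, had 9.46 and 9.19 CPM in the combination libraries, against 42.9 and 1.62 CPM in the anti-CTLA-4 libraries. Cd8a, the coreceptor of killer T cells, had 11.9 and 11.9 CPM in the combination libraries, against 32.2 and 0.8 CPM in the anti-CTLA-4 libraries. Cd4, the coreceptor of helper T cells, had 2.44 and 2.45 CPM in the combination libraries, against 9.91 and 0.942 CPM in the anti-CTLA-4 libraries. The median log2 difference of the list was −1.72 against library A and 1.61 against library B. The direction therefore turned with the library, and for Cd8a it was −0.47 in the main fit and 3.89 without library A (edgeR). The 2 anti-CTLA-4 libraries do not give a level of T cell RNA against which the combination could be placed.

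Of 11 checkpoint and exhaustion genes, 6 lay between the anti-CTLA-4 libraries with library A the higher, against 11.6% of all genes tested. Another 4 were above both, against 28.6% of all genes, and the median log2 difference was 0.12. Pdcd1, which codes for PD-1, had 4.59 and 4.68 CPM in the combination libraries, against 23.6 and 0.426 CPM in the anti-CTLA-4 libraries. Lag3, Tigit and Tox, markers of chronically stimulated T cells, lay between the anti-CTLA-4 libraries as well. Ctla4 itself, the target of the antibody, was low at 1.31 and 0.859 CPM in the combination libraries, against 1.58 and 0.267 CPM in the anti-CTLA-4 libraries. Its partner Cd28 had 2.49 and 2.59 CPM in the combination libraries, against 4.82 and 0.373 CPM in the anti-CTLA-4 libraries. Of their shared ligands, Cd80 had 13.8 and 16.6 CPM in the combination libraries, against 12.3 and 19.7 CPM in the anti-CTLA-4 libraries, and Cd86 had 33.6 and 34.9 CPM in the combination libraries, against 29.3 and 10.9 CPM in the anti-CTLA-4 libraries. The groups overlapped for Ctla4, Cd28 and Cd80. The regulatory T cell list did not separate as a whole: 5 of its 11 genes lay between the anti-CTLA-4 libraries, 3 were below both and 1 above both. Among all genes tested these shares were 11.6% (library A the higher), 32.9% and 28.6%. The median of the list was −0.89 against library A and 0.30 against library B. Foxp3, the defining factor of these cells, was at 0.28 and 0.365 CPM in the combination libraries, against 0.841 and 0.551 CPM in the anti-CTLA-4 libraries, under 1 CPM in all 4. Both combination libraries lay below the anti-CTLA-4 libraries and below the other 16, where Foxp3 ran over 0.658 to 4.6 CPM, and the log2 difference was −1.11 ± 0.53 (SE, edgeR adjusted p = 0.225). Tnfrsf4, which codes for OX40 and is abundant on these cells, was another of the 3 genes below both, at 0.456 and 0.53 CPM in the combination libraries, against 1.95 and 0.906 CPM in the anti-CTLA-4 libraries (edgeR adjusted p = 0.0959).

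The T cell receptor segment Trbv13-3 took a larger share of the variable beta segment reads in the combination libraries. It made up 27% (44 of 163 reads, 95% Wilson interval 20.8 to 34.3%) and 20.7% (31 of 150, 15 to 27.8%) in the combination libraries, against 2.56% (13 of 507, 1.5 to 4.34%) in anti-CTLA-4 library A and 0 of 19 reads in library B. A count of 0 of 19 allows a share of up to 15.8%, so library B held too few such reads to compare. The intervals cover counting error only. As a level, Trbv13-3 had 0.648 and 0.566 CPM in the combination libraries, against 0.267 and 0 CPM in the anti-CTLA-4 libraries, with an edgeR adjusted p of 0.376.

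Interferon gamma genes were close to library A of anti-CTLA-4 and far above library B. Of 28 tested genes of the interferon gamma response, 28 had a positive log2 difference with a median of 0.79. At an unadjusted p under 0.05, 1 was higher, against 11.4% of all genes. In 14 of the 28 the combination lay between the anti-CTLA-4 libraries with library A the higher, against 11.6% of all genes. In 13 it lay above both, against 28.6%. The median was −0.007 against library A and 3.57 against library B, so the median was positive against library B and near 0 against library A. Ifng itself had 3.46 and 2.87 CPM in the combination libraries, against 6.05 and 0.142 CPM in the anti-CTLA-4 libraries. Cd274, which codes for PD-L1, had 59.5 and 60 CPM in the combination libraries, against 35.3 and 2.68 CPM in the anti-CTLA-4 libraries. Iigp1, a GTPase that attacks intracellular parasites, had 435 and 461 CPM in the combination libraries, against 335 and 17.8 CPM in the anti-CTLA-4 libraries. Both Cd274 and Iigp1 lay above library A by less than 2-fold. Gbp10, a guanylate-binding protein, was apart with 36.2 and 36.6 CPM in the combination libraries, against 17.8 and 1.39 CPM in the anti-CTLA-4 libraries. Of 23 genes that type I interferon induces, 11 lay between the anti-CTLA-4 libraries, 8 above both and 1 below both. Among all genes tested these shares were 11.6% (library A the higher), 28.6% and 32.9%. The median log2 difference of the type I list was −0.17 against library A and 0.98 against library B. Among the 8, Rsad2, which codes for the antiviral enzyme viperin, had 43.2 and 44.7 CPM in the combination libraries, against 18.2 and 20.4 CPM in the anti-CTLA-4 libraries. Ifit2 had 100.5 and 103 CPM in the combination libraries, against 53.1 and 48.2 CPM in the anti-CTLA-4 libraries (edgeR adjusted p = 0.0996). For Rsad2 and Ifit2 the combination was about 2-fold above both anti-CTLA-4 libraries. Antigen presentation genes had 20 of 21 members between the anti-CTLA-4 libraries with library A the higher, against 11.6% of all genes tested. An example was the class II gene H2-Eb1, with 324 and 306 CPM in the combination libraries, against 1058 and 40.9 CPM in the anti-CTLA-4 libraries. Nlrc5, the activator of class I genes, was the member outside this order, with 113 and 110.1 CPM in the combination libraries, against 90.5 and 24.3 CPM in the anti-CTLA-4 libraries.

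**Figure D4:**
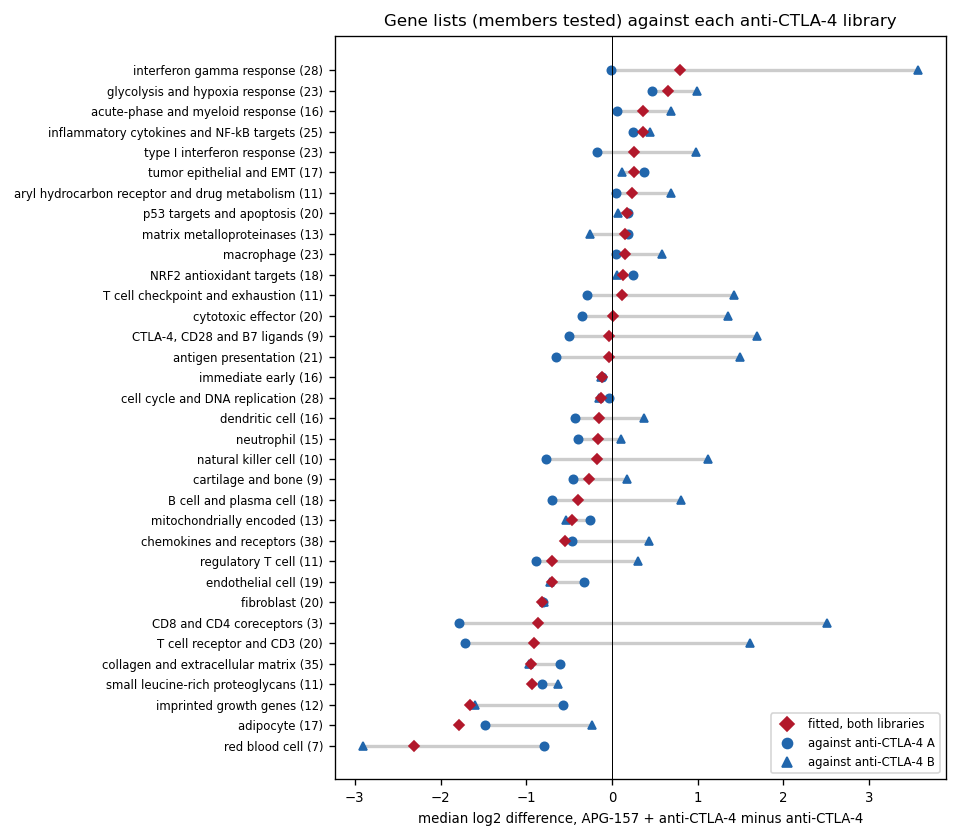
Median log2 difference of each gene list (members tested in parentheses), combination minus anti-CTLA-4, from the fit (red diamond, genes at 0 in a group held at their bounds) and against anti-CTLA-4 library A (blue circle) or B (blue triangle) alone, with the skeletal muscle and epidermis lists left out. The hypoxia list is positive against both libraries, at 0.46 and 1.00, the collagen and matrix list is negative against both, at −0.61 and −0.96, and the T cell receptor list lies on either side, at −1.72 and 1.61.

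NRF2 is a transcription factor that reactive plant compounds release to induce antioxidant enzymes. Of 18 of its targets tested, 3 were higher at an unadjusted p under 0.05, a share near the 11.4% of all genes, and 0 were apart, with a median log2 difference of 0.13. Nqo1, a quinone reductase, had 10.9 and 11.8 CPM in the combination libraries, against 9.5 and 9.79 CPM in the anti-CTLA-4 libraries. Hmox1, heme oxygenase 1, had 126 and 123 CPM in the combination libraries, against 92.4 and 147 CPM in the anti-CTLA-4 libraries. Slc7a11, the cystine transporter, leaned higher at 33.2 and 35.4 CPM in the combination libraries, against 23.7 and 7.16 CPM in the anti-CTLA-4 libraries. Among 11 genes of the aryl hydrocarbon receptor, a sensor of aromatic compounds, the median was 0.23. Tiparp, an inducible repressor of the receptor, had 103 and 107 CPM in the combination libraries, against 54.8 and 54.5 CPM in the anti-CTLA-4 libraries (edgeR adjusted p = 0.0923), whereas Cyp1b1, an oxidase the receptor induces, was lower at 0.338 and 0.384 CPM in the combination libraries, against 2.58 and 2.24 CPM in the anti-CTLA-4 libraries. Cyp1b1 and Tiparp thus lay on opposite sides.

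A few stress genes were higher, although the lists that hold them had small median differences. Of 20 p53 target and apoptosis genes, 2 were higher and 1 lower at an unadjusted p under 0.05, against 11.4% and 12.2% of all genes. In that list 0 were apart, 15 of 20 had a positive log2 difference and the median was 0.18. Its mean log2 level was 5.47 and 5.45 in the combination libraries, against 5.2 and 5.28 in the anti-CTLA-4 libraries and 4.98 to 5.31 in the other 16. The summed level overlapped, at 2100 and 2080 CPM in the combination libraries, against 1620 and 2090 CPM in the anti-CTLA-4 libraries. Of 16 immediate early genes, 5 had a positive and 11 a negative log2 difference, with a median of −0.117. Atf3, a transcription factor of the integrated stress response, had 32.6 and 30.8 CPM in the combination libraries, against 11.6 and 11.5 CPM in the anti-CTLA-4 libraries, a log2 difference of 1.46 ± 0.39 (SE, edgeR adjusted p = 0.0704). Sesn2, a sestrin induced by p53 and by amino acid shortage, had 47.4 and 43.3 CPM in the combination libraries, against 22.4 and 17.7 CPM in the anti-CTLA-4 libraries (adjusted p = 0.0645). Mdm2, the ligase that degrades p53, had 150.2 and 156 CPM in the combination libraries, against 92.3 and 107 CPM in the anti-CTLA-4 libraries. These 3 genes were higher in both combination libraries. The immediate early factor Egr1 was lower at 77.7 and 73.5 CPM in the combination libraries, against 115 and 132 CPM in the anti-CTLA-4 libraries. Cell cycle genes had a spread of directions, with 11 of 28 positive and 0 apart, and Birc5, which codes for survivin, was lower at 79.7 and 77.6 CPM in the combination libraries, against 125 and 123 CPM in the anti-CTLA-4 libraries.

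Genes of muscle, blood and fat and imprinted genes gave some of the largest fitted differences, and for them the anti-CTLA-4 libraries disagreed. Where this RNA came from was not tested. All 40 tested skeletal muscle genes were lower in the fit, with a median log2 difference of −8.07, but the median was −0.55 against library A and −7.23 against library B. Myl1, a myosin light chain of fast muscle, had 0.0441 and 0.0365 CPM in the combination libraries, against 0.349 and 208 CPM in the anti-CTLA-4 libraries. The hemoglobin gene Hba-a1 had 18 and 14.2 CPM in the combination libraries, against 42.1 and 158 CPM in the anti-CTLA-4 libraries, and Car3, a carbonic anhydrase of muscle and fat, had 0.0589 and 0.0183 CPM in the combination libraries, against 9.97 and 62.3 CPM in the anti-CTLA-4 libraries. H19, an imprinted RNA of fetal tissue and muscle, had 0.132 and 0.146 CPM in the combination libraries, against 1.17 and 86.8 CPM in the anti-CTLA-4 libraries, and the imprinted growth factor gene Igf2 had 0.0294 and 0.0183 CPM in the combination libraries, against 0.472 and 2.83 CPM in the anti-CTLA-4 libraries. The list of fat cell genes stood higher in anti-CTLA-4 library A than in library B. Its mean log2 level was 2.02 in library A and 0.949 in library B, against 0.329 and 0.34 in the combination libraries. For each single gene named above in this paragraph, however, library B of anti-CTLA-4 was the highest of the 4. Library B was also the higher of the anti-CTLA-4 libraries for Aspn, Col6a2, Lyve1 and Sfrp2, and the lower for Mgp and Eln. With the mean level of the muscle list as a covariate in edgeR, the log2 difference was −2.81 for Aspn, −1.89 for Col6a2, −4.59 for Lyve1, −5.2 for Sfrp2, −3.02 for Mgp and −3.54 for Eln, each at an adjusted p of 0.141.

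The size of a difference also went with the length of the transcript. Across 11312 genes sorted into 5 equal groups by length, the median log2 difference was −0.35 in the shortest, then −0.11, 0.05, 0.19, and 0.39 in the longest (Spearman's rho across genes 0.55, with no test since genes are not independent). The gap between the longest and the shortest group, taken within each library against the mean of all, was 0.37 and 0.38 in the combination libraries, the highest of 20 libraries, against −0.42 and −0.32 in the anti-CTLA-4 libraries, where the other 16 ran from −0.34 to 0.27. The part of the gradient in the differences of single genes was not tested, but a fit with the trend removed had 221 genes higher (1.13%) and 423 lower (2.16%) at an adjusted p under 0.10. The log2 difference became −2.46 for Mgp, −3.01 for Aspn, −3.88 for Eln, 1.6 for Vegfa, 2.28 for Acod1 and 2.52 for Gzmg. Of 75 named genes with a log2 difference of at least 1 in size, 6 moved by more than 1.5 times, all toward 0. They were Hivep1 (0.71), Rpp25l (−0.60), Gm5575 (−0.86), Tigit (−0.53), Slc7a11 (0.65) and Ccl8 (−1.25). The 13 mitochondrially encoded genes, with a median of −0.47 in the main fit, had 0.041 with the trend removed.

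**Figure D5:**
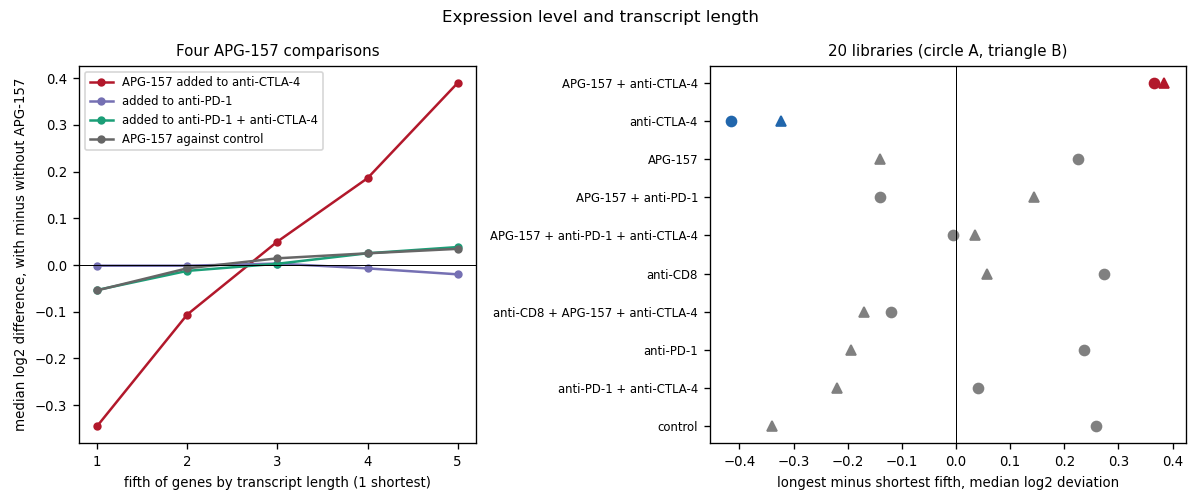
On the left, the median log2 difference with APG-157 in 5 groups of genes by transcript length, for the comparison with anti-CTLA-4 (red) and for the other 3 comparisons of APG-157. On the right, the gap between the longest and the shortest length group in each of the 20 libraries (circle A, triangle B), where the combination libraries, at 0.37 and 0.38, have the 2 highest values.

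Whether APG-157 had a different effect beside anti-CTLA-4 than without it was tested with the interaction, the combination against anti-CTLA-4 minus APG-157 against control. Gm43802 was the 1 gene called (0.00511%), a call that leaving out any 1 of the 8 libraries ended, with 0 called lower (0%), and 1967 genes had an unadjusted p under 0.05 (10.1%). APG-157 against control had 149 genes at that level (0.761%), APG-157 added to anti-PD-1 had 242 (1.24%), and APG-157 added to both antibodies had 318 (1.63%), against 23.6% in the comparison described here. That share was 17.9% with the length trend removed. The shares of the other 3 comparisons lay under the rate of 0.05 that the p limit gives where no gene differs. All groups shared 1 fit of the spread, and its part in these shares was not tested. For Mgp, the log2 difference with APG-157 was −3.0 beside anti-CTLA-4, −0.26 without an antibody, −0.19 with anti-PD-1 and −0.17 with both antibodies. For Eln, it was −3.78 beside anti-CTLA-4, −0.22 without an antibody, −1.07 with anti-PD-1 and −1.31 with both antibodies. Both genes were more negative beside anti-CTLA-4 than in the other 3 comparisons. For Vegfa, it was 1.66 beside anti-CTLA-4, −0.23 without an antibody, −0.27 with anti-PD-1 and −0.78 with both antibodies. For Acod1, it was 2.21 beside anti-CTLA-4, −1.1 without an antibody, 1.66 with anti-PD-1 and −0.83 with both antibodies. The interactions of Mgp (−2.73 ± 0.7, SE, edgeR adjusted p = 0.463), Eln (−3.56 ± 1.2, adjusted p = 0.463), Vegfa (1.89 ± 0.76, adjusted p = 0.463) and Acod1 (3.31 ± 1.5, adjusted p = 0.494) did not pass the test.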

How the data were processed

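Bulk RNA of SCCVII tumors was sequenced as 20 libraries (10 groups of 2), of which 4 are compared here. Libraries were made from mRNA. Per the submitters' notes, reads went through Trimmomatic 0.39 and Salmon 1.5.0 on GRCm39, and the authors deposited expected counts per gene that were not scaled for depth. They also deposited a table of log2 values made from these counts, which was not used for tests. Salmon divides reads among similar transcripts, so genes with near copies are uncertain.

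After rounding, filterByExpr of edgeR (minimum count 10, minimum total 15) kept 19567 of 54309 genes. An edgeR 4.0.16 quasi-likelihood model (robust, TMM factors) was fitted to all 20 libraries with 1 coefficient per group. It had 10 residual degrees of freedom, and the common biological coefficient of variation was 38.7%. Calls needed an adjusted p (Benjamini-Hochberg, over all tested genes) under 0.05 with a log2 difference over 2 in size. The SE of a log2 difference is its size over the root of the F statistic. CPM use TMM factors, 0.1 was added before logarithms, and folds against 0 use a floor of 3 reads over the group. Intervals of shares are Wilson's (95%). The depth of 43.9 to 72.1 (in 1e6 reads) makes counting error small for genes over 1 CPM, and the 2 libraries per group limit the precision.

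The members and the 36 gene lists were chosen with earlier results of these data known. Named genes are the called genes, up to 10 in each direction with the lowest p among genes that were apart at 2-fold and had a mean of at least 1 CPM in either group, the 4 of each list with the largest differences, and a set of 24 genes of the CTLA-4, T cell and APG-157 pathways, of which Cyp1a1 was not tested; not all are described. Alternatives were RLE factors, other filters, DESeq2 1.42.0, fits on the compared libraries, the replicate letter as a block, a skeletal muscle covariate, the combination libraries summed as 1 sample and each library left out. Chosen after seeing the data were the adjusted p limit of 0.10, the removal of the length trend (lowess, span 0.3) and the order of the libraries. Transcript lengths (GENCODE vM21, GRCm38) matched 99.6% of tested genes by ID, and promoters were taken from RefSeq on GRCm38.p6, a different build from that of the counts, by symbol. The scripts were tested on simulated data. R 4.3.3 and limma 3.58.1 were used.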

Additional observations from a re-analysis of the deposited data

Results flagged for a closer look

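For Gm43802, a processed pseudogene, the difference between libraries with and without APG-157 was larger beside anti-CTLA-4 than without it. The interaction in edgeR's quasi-likelihood test was 12.8 on the log2 scale (SE 1.42, adjusted p = 0.0424). This value depends on the 0 reads in both anti-CTLA-4 libraries and is no bound. The gene had 13.6 and 12.8 CPM in the combination libraries, against 0 and 0 CPM in the anti-CTLA-4 libraries. It was also at 0 and 0 CPM in the anti-CD8 + APG-157 + anti-CTLA-4 libraries, which had received APG-157 too. The log2 difference of APG-157 against control was −0.23 for Gm43802. For Gm43802, leaving out any 1 of the 8 libraries of the interaction ended the call (edgeR adjusted p between 0.0871 and 0.26), as did leaving out anti-CD8 + APG-157 + anti-CTLA-4 library B (adjusted p = 0.0668).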

How the results depend on the processing

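With 2 libraries per group the precision is limited by the libraries and, at these depths, hardly by counting. Of the 19567 genes tested, edgeR called 1 in the main comparison, and also 1 with RLE factors, with a skeletal muscle covariate, with the combination libraries summed as 1 sample, with a log2 minimum of 1 or none, and with the length trend removed. It called 22 genes with no low-count filter, 34 at a mean of at least 1 CPM, 83 (23 higher and 60 lower) without anti-CD8 + APG-157 + anti-CTLA-4 replicate B, 122 on the compared libraries, and 1966 when the limit on the adjusted p was 0.10 and the fold was free. DESeq2 called 277 on all 20 libraries (50 higher and 227 lower) and 339 on the compared ones. In the interaction, DESeq2 called 34 genes on all 20 libraries and 63 on the 8 libraries involved. There edgeR called 0 with no low-count filter, on these 8 libraries, with the combination summed, or with the length trend removed. Leaving out 1 library at a time, the comparison had 0 to 83 calls and the interaction 0 to 2. The comparison had 0 without combination library A or either anti-CTLA-4 library, 2 without either APG-157 library, 44 without control library A and 49 without control library B, and the libraries of the other groups, apart from the one named, were not left out. The count of genes apart was 575 at 2-fold, 184 with 1 CPM added in place of 0.1, and 12041 for any gap. The causes of these differences were not tested.

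The replicate letters are not stated to pair the libraries, and same-letter deviations of the compared groups correlated at 0.00516. With the letter as a replicate block, edgeR called 44 genes (19 higher and 25 lower) in the comparison and 1 in the interaction.

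Log2 differences turned sign when a library was left out for these T cell genes, from lowest to highest: −2.2 to 2.53 (Cd3g), −2.17 to 2.5 (Cd3d), −1.43 to 3.89 (Cd8a), −1.8 to 2.67 (Cd8b1), −2.02 to 1.37 (Cd4), −0.923 to 2.76 (Cd28). The same held for the receptors of chronic stimulation and Ctla4: −2.35 to 3.44 (Pdcd1), −2.11 to 2.74 (Lag3), −2.78 to 2.39 (Tox), −1.91 to 1.93 (Tigit), −0.54 to 2.02 (Ctla4). It also held for other genes: −1.75 to 2.94 (H2-Eb1), −0.0587 to 2.26 (Gzmb), −0.935 to 4.46 (Ifng), −0.372 to 0.307 (Cd80), −0.24 to 0.431 (Hmox1), −2.75 to 0.661 (Ccl8). Near 0, the sign also turned for Ifng at a mean of at least 1 CPM (−0.0156) and on the compared libraries (−0.00127), for Cd28 in DESeq2 on the compared libraries (0.00477), with the replicate block (0.269) and with the muscle covariate (0.0535), and with that covariate for Cd80 (0.00517) and Hmox1 (−0.00606). None of these passed a test in the main fit. Aspn, Mgp, Eln, Col6a2, Vegfa, Car9, Adm, Ndrg1, Gzmd, Gzme, Gzmf and Gzmg kept their sign in every alternative run. For each of them both combination libraries lay on the same side of both anti-CTLA-4 libraries. Leaving out a library could therefore hardly turn the sign, and the kept sign is no separate support.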
